A study of Mus musculus with 2 samples.

Results

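The genes described here make, break down or control glycogen, the branched glucose store of liver. They are 9 genes, chosen by symbol from a list drawn up with earlier results of these arrays known, so that the difference between diets had already been seen when they were picked. All 9 of 18193 genes on the array had a probe set, and together they had 16 of the 34945 probe sets annotated with a single gene symbol. Liver RNA came from male C57BL/6J mice, an inbred wild-type strain, that were kept 1 to a cage from 8 weeks of age and were 5 months old at the end. The AL group ate ad libitum for 12 weeks, and the CR group was calorie-restricted, first by 20% for a week and then by 40% for 11 weeks. Equal amounts of RNA from the 3 mice on a diet were mixed into 1 pool, and the pool was hybridised to a single Affymetrix array with 45101 probe sets. The comparison is of liver transcripts between the diets. As a diet had only 1 array, no test could be made, and the spread between mice is unknown. When the mice last ate and at what hour the livers were taken, which matters for a store that fills and empties over a day, is not given in the sources used here.

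Glycogen is built from UDP-glucose. Ugp2, UDP-glucose pyrophosphorylase, makes UDP-glucose, Gys2, the liver glycogen synthase, adds its glucose to growing chains, and Gbe1, the branching enzyme, adds the branch points. Pygl, the liver glycogen phosphorylase, releases glucose 1-phosphate, and it is switched on by phosphorylase kinase, of which Phka2 is the liver alpha regulatory subunit and Phkg2 the liver gamma catalytic subunit. Protein phosphatase 1 (PP1) acts the other way, dephosphorylating the synthase, which activates it, and the phosphorylase, which inactivates it. Targeting subunits bring PP1 to the glycogen particle. Ppp1r3b encodes GL, a main subunit of liver, Ppp1r3c encodes PTG (protein targeting to glycogen), and Ppp1r3g encodes another subunit of the family, reported to be more abundant in mouse liver in fasting.

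Values are the deposited intensities, and a difference is given on the log2 scale as CR minus AL. A probe set was called measured if it reached an intensity of 7.38, the median of all values on both arrays, in at least 1 pool, and the probe set with the highest mean log2 intensity stands for its gene. All 9 members were measured, as were 14 of their 16 probe sets. Of the 9, 1 was at least 2-fold higher in CR, Ppp1r3g, and 3 were at least 2-fold lower, Pygl, Phka2 and Ppp1r3c. Over the 12644 measured genes, 1.80% were at least 2-fold higher and 2.79% at least 2-fold lower. Below 0 lay 7 of the 9 members, with a median of -0.45, against 52.1% of measured genes and a median of -0.02. These shares are given for scale only, since the members were chosen with this contrast known. Of the 14 measured probe sets, 1 was at least 2-fold higher and 4 at least 2-fold lower, against 1.99% and 2.97% of the 20316 measured probe sets of single genes. Median intensities were 7.35 in AL and 7.42 in CR, and all differences are relative to the typical gene. Scaling the arrays on all hybridisation control spikes instead, chosen after seeing the data, lowered every difference by 1.02, so that 7 members were at least 2-fold lower and 1 higher, against 54.2% and 0.261% of all measured genes. Scaling on the cre spikes lowered every difference by 0.37 and left 3 lower and 1 higher, against 8.15% and 0.759% of all measured genes. Under both scalings Ppp1r3b changed sign and the other 8 members kept theirs.

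**Figure D1:**
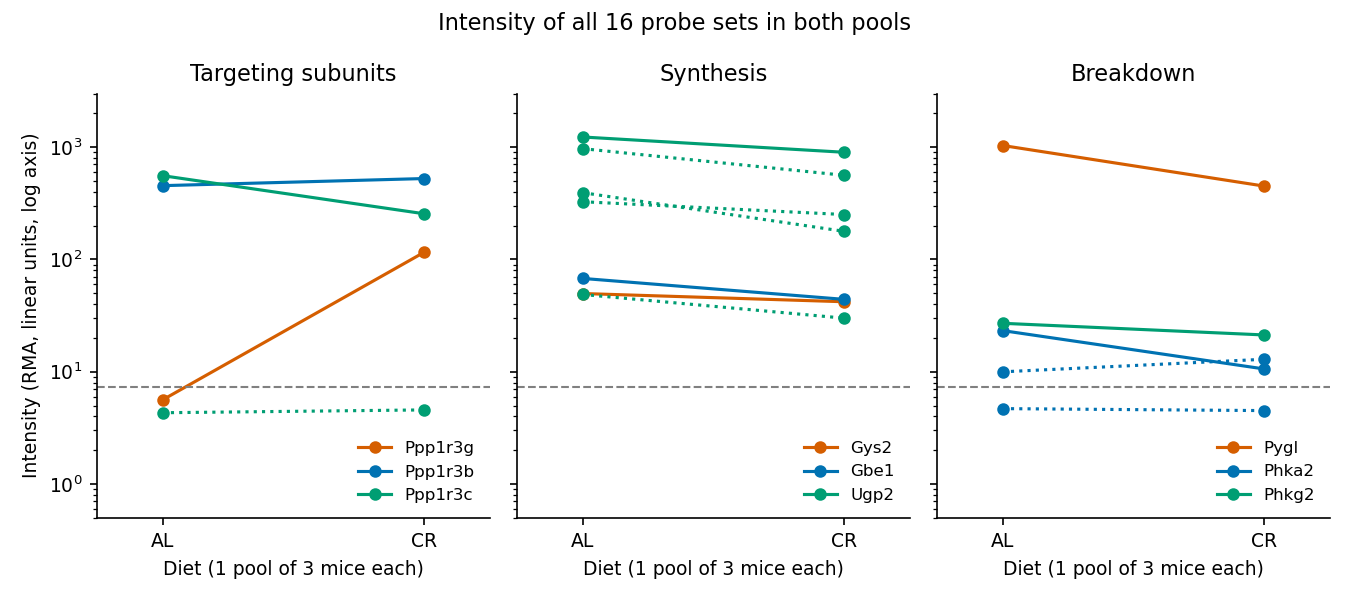
Intensity (log axis) of the 16 probe sets of the 9 genes in the AL and CR pools, 1 array each. Solid lines are the probe sets that represent a gene, dotted lines its other probe sets, and the dashed line the limit of 7.38; Ppp1r3g crosses the limit from 5.62 in AL to 116 in CR, whereas Pygl goes from 1033 to 449.

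The 3 targeting subunits lay in different directions. Ppp1r3g stood at an intensity of 5.62 in the AL pool, below the limit, and of 116 in the CR pool. The limit is the median of all values and no estimate of background. Without detection calls, whether the AL value differs from background cannot be told. Set against the limit, Ppp1r3g was at least 15.7-fold higher in CR, a log2 difference of at least 3.97, and this bound moves with the limit. Its value in AL gives only this bound, which by itself lay above the central 95% of measured genes, from -1.04 to 0.89. Ppp1r3b, the GL gene, stood close to level, at 454 in AL and 525 in CR, a log2 difference of 0.21 that turned to -0.81 on all hybridisation controls and to -0.16 on the cre spikes. Ppp1r3c, the PTG gene, was lower in CR, at 557 in AL and 255 in CR, or 45.8% of the AL value, with a log2 difference of -1.13. Only 1 of its 2 probe sets was measured, and the other stayed at 4.31 and 4.57, below the limit in both pools.

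Set against each other, Ppp1r3g exceeded Ppp1r3b by at least 3.76 on the log2 scale, and Ppp1r3c by at least 5.10. The ratio of Ppp1r3g to Ppp1r3b was thus at least 13.6-fold higher in CR than in AL, and the ratio of Ppp1r3g to Ppp1r3c at least 34.3-fold higher. Ppp1r3b exceeded Ppp1r3c by 1.34. A scaling shared by all genes cancels in such a contrast, so both spike scalings left these values as they were. Ppp1r3g and Ppp1r3b each rested on 1 probe set, and no second probe set of either gene was there to compare.

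**Figure D2:**
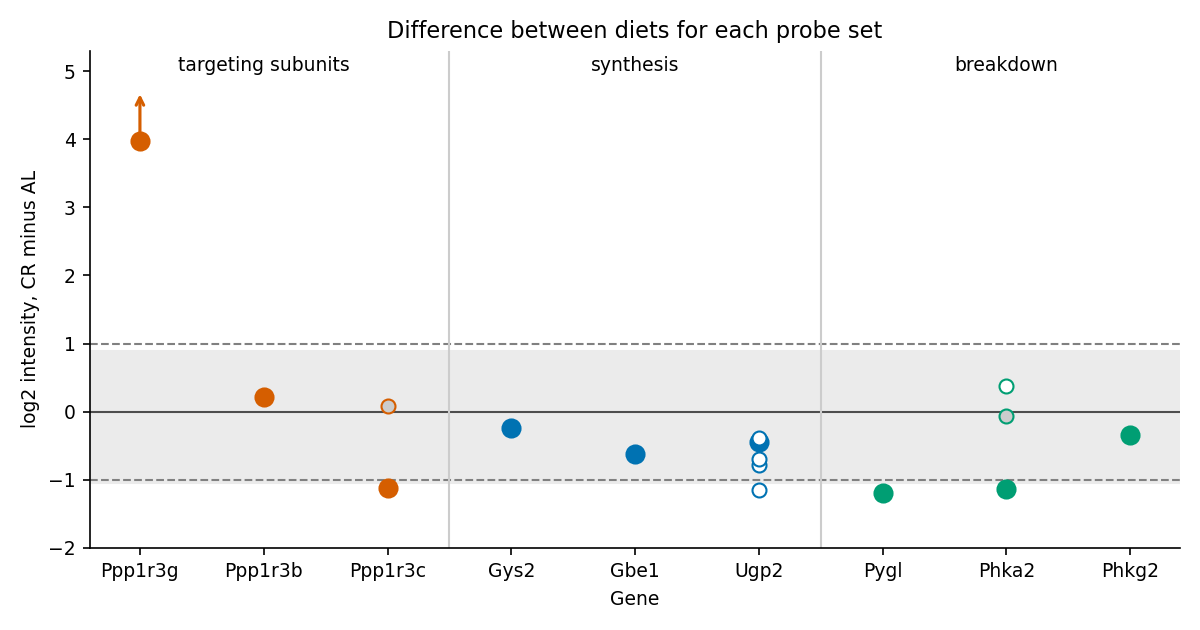
Log2 intensity of CR minus AL for each probe set of the 9 genes, grouped by role, on the scale relative to the typical gene. Large filled points represent a gene, white points are its other measured probe sets, grey points are probe sets under the limit in both pools, dashed lines mark 2-fold and the grey band the central 95% of measured genes, from -1.04 to 0.89; Ppp1r3g is drawn at its lower bound of 3.97, with an arrow, and Pygl, Phka2 and Ppp1r3c lie just below the band.

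The 3 synthesis genes were lower in CR by less than 2-fold. Gys2 stood at 49.7 in AL and 42.0 in CR, a log2 difference of -0.24. Gbe1 had 67.7 and 44.1, a difference of -0.62, and its only probe set is of a type that can match several transcripts. Ugp2 had 5 probe sets, and all 5 were lower in CR. The brightest, which represents the gene, had 1230.0 in AL and 899 in CR, a difference of -0.45. The other 4 lay at -0.38, -0.70, -0.79 and -1.14, the last with 393 in AL and 178 in CR. Ugp2 is the member whose direction rests on the most probe sets, and its size varied between them from 1.30-fold to 2.21-fold. Most of them, with the one that represents the gene, are of the type that can match several transcripts. With that type left out, Ugp2 stood at -0.38. As a rough measure of technical agreement, the SD between the differences of probe sets of one gene had a median of 0.288 over 4924 genes. The differences of Gys2 and Ppp1r3b were smaller than that.

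On the probe sets that represent them, the breakdown genes were lower in CR, by unequal amounts. Pygl stood at 1033 in AL and 449 in CR, or 43.5% of the AL value, and its log2 difference of -1.20 was the 209th lowest of the 12644. Phkg2, the catalytic subunit of the kinase, had 27.0 and 21.2, a difference of -0.35. Phka2, the regulatory subunit, had 23.2 and 10.6 on the probe set that represents it, a difference of -1.13. Its other measured probe set pointed the opposite way, with 9.98 in AL and 12.9 in CR, a difference of 0.37, and a further one lay below the limit in both pools, at 4.69 and 4.51. The direction of Phka2 is therefore not settled by these arrays. Pygl and Phkg2 each had 1 probe set.

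Synthesis and breakdown were then set against each other. The median difference was -0.45 over Gys2, Gbe1 and Ugp2, which ranged from -0.62 to -0.24, and -1.13 over Pygl, Phka2 and Phkg2, which ranged from -1.20 to -0.35. Synthesis minus breakdown was thus 0.68, but the ranges of the 3 genes on each side overlapped. The contrast reversed to -0.27 when each gene's probe sets were averaged, because Phka2 then stood at -0.27 and Ugp2 at -0.69. On the representing probe sets, the contrast was 0.32 without Phka2, and 0.46 with means over the genes in place of medians. With medians over the genes, the sign of this contrast thus depended on how the probe sets of a gene were summarised. Means over the genes were not combined with averaged probe sets. Between the synthase and the phosphorylase, Gys2 lay above Pygl by 0.96, so that their ratio was 1.94-fold higher in CR, each on 1 probe set. The pair was not among the contrasts planned. It joins the highest of the synthesis genes, at -0.24, with the lowest of the breakdown genes, at -1.20.

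**Figure D3:**
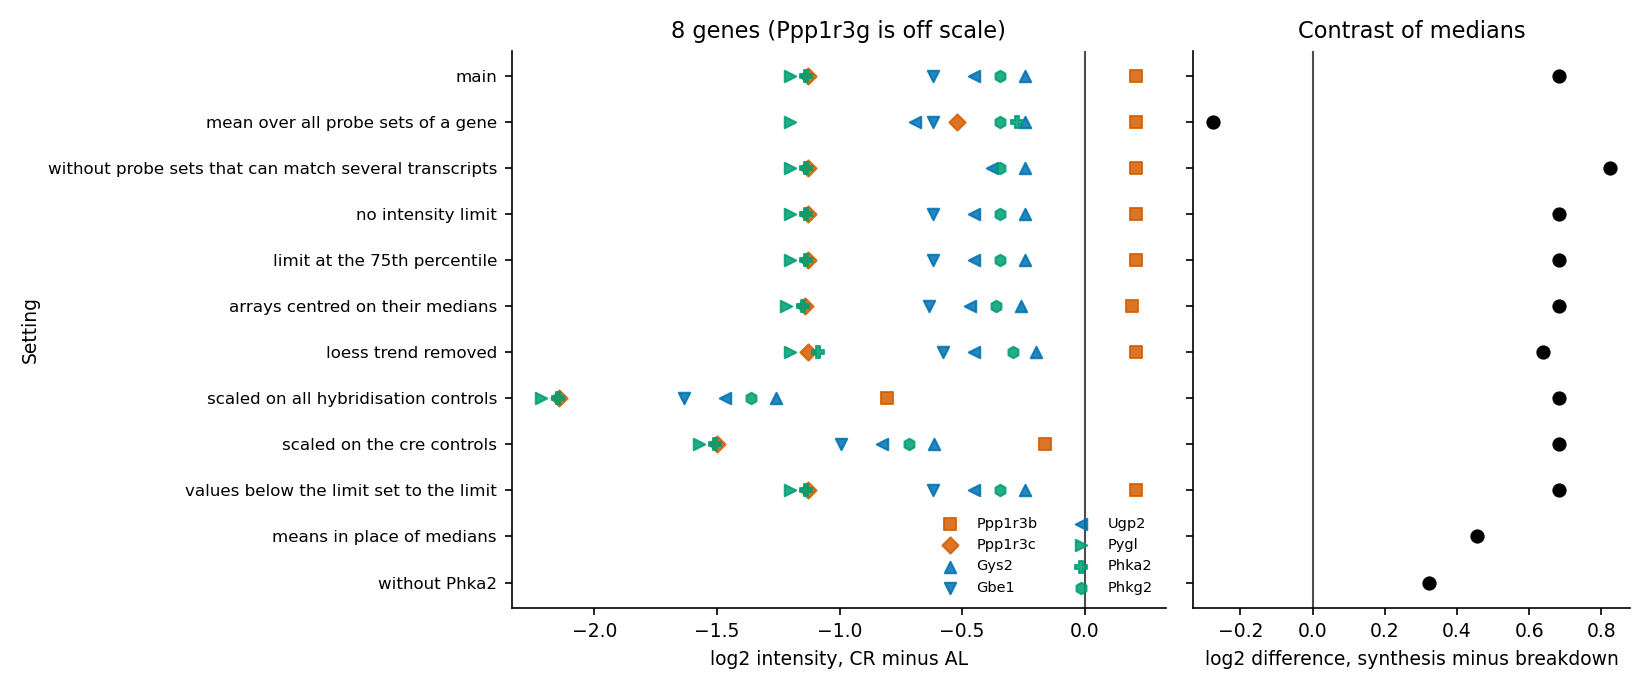
Left, log2 intensity of CR minus AL for 8 of the 9 genes under each setting (coloured by role: orange targeting subunits, blue synthesis, green breakdown); right, the median of the synthesis genes minus that of the breakdown genes. Ppp1r3b crosses 0 under both spike scalings, and the contrast of roles crosses 0 when probe sets are averaged, at -0.27.

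The 4 members at least 2-fold apart are shown with the 250 bases before their start site, 5′ to 3′, from RefSeq on GRCm38.p6, since they are the genes past that size on the probe set that represents them, Phka2 with the disagreement between its probe sets given above. Capitals mark a match to 1 of the 5 motifs searched on both strands.
Ppp1r3g, chr13:35967656-35967905, plus strand: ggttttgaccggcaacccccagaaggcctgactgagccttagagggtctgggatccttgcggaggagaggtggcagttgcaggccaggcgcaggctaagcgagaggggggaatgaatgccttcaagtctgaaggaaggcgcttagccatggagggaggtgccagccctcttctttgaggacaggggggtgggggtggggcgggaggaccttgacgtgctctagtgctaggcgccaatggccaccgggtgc
Ppp1r3c, chr19:36736605-36736854, minus strand: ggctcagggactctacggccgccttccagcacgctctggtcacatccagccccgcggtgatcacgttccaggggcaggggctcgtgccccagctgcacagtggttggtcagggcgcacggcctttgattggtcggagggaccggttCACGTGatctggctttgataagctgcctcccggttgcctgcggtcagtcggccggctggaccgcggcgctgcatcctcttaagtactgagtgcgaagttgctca
Pygl, chr12:70227684-70227933, minus strand: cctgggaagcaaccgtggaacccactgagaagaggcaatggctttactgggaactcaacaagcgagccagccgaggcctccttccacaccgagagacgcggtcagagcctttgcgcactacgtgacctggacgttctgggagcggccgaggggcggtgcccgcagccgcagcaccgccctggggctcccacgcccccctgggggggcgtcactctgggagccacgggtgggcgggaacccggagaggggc
Phka2, chrX:160501912-160502161, plus strand: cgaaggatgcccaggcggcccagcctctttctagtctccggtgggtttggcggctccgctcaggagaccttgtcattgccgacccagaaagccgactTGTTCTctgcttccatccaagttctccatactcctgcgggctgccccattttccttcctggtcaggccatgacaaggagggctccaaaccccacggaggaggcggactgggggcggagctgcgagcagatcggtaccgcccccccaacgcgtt
The windows of Ppp1r3g and Phka2 lie inside the wider annotated span of their genes, and those of Ppp1r3c and Pygl lie outside it. Of the 9 members, 7 had a window in the table, 8 windows in all, and Ppp1r3b and Gys2 had none. The search covered 300 bases, 250 before and 50 after the start site. The E-box CACGTG was found in the window of Ppp1r3c, beginning at -104 from the start site, and in 7.15% of all 32851 windows. The glucocorticoid receptor half-site letters TGTTCT were found in that of Phka2, beginning at -153, and in 19.0% of all windows. No member window held the TATA box letters TATAAA (13.6% of all windows), the cyclic AMP response element TGACGTCA (1.79%) or the forkhead letters GTAAACA (3.65%). The higher gene, Ppp1r3g, and the lower gene Pygl both held none of the 5. A match or its absence describes these letters only.

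Other genes of glycogen handling were taken from a list of 46 that holds none of the 9. Of these, 40 had a probe set with a single symbol and 37 were measured, 23 above 0 and 14 below. Over all measured genes 52.1% lay below 0, the scale for this count and for the counts of direction that follow. None of the 37 was at least 2-fold higher, against 1.80% of all measured genes, and 2 were at least 2-fold lower, against 2.79%. The list's median was 0.07, or -0.95 if scaled to all hybridisation controls and -0.31 if scaled to cre. The directions that follow are relative to the typical gene, and small positive ones turn negative under those scalings. The lower genes were Stbd1, which tethers glycogen to membranes for breakdown in lysosomes, with 225 in AL and 76.5 in CR and a difference of -1.56, and Ppp1ca, a catalytic subunit of PP1, with 96.4 and 47.5 and a difference of -1.02. Ppp1ca passed the 2-fold size by little, and the list held 1 such gene after a loess trend on intensity was removed.

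Among the 3 other measured targeting subunits, none came near Ppp1r3g. Ppp1r3e, a subunit of the same family, went from 29.7 in AL to 42.1 in CR, a difference of 0.51, and Ppp1r3f stood at 0.21. Of the 6 measured PP1 catalytic subunits and inhibitors, 4 lay above 0 and 2 below, and Ppp1r2, inhibitor 2, stood at 0.22. The 4 measured probe sets of Ppp1cb, counted above 0, ran from -0.97 to 0.20, so its direction is not settled. The glycogen synthase kinase genes Gsk3b and Gsk3a stood at 0.94 and 0.42, both under 2-fold. The 4 measured probe sets of Gsk3b ran from -1.20 to 0.94, so its direction is not settled. The other phosphorylase kinase subunits Phka1 and Phkb stood at -0.34 and -0.19, and the 2 measured probe sets of Phka1 had opposite signs.

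Of the 8 other core enzymes measured, 6 lay above 0. Those 6 include Pygm and Pgm2, which were below the limit in AL, at 7.28 and 7.10. The measured probe sets of Gaa, counted above 0, and of Pgm1, counted below, had opposite signs. Pygb, the brain phosphorylase, had 10.2 in AL and 13.4 in CR, a difference of 0.39, while Pygl, as given above, was lower. Pgm3, a phosphoacetylglucosamine mutase of amino sugar synthesis and no enzyme of glycogen itself, stood at -0.88. It had 11.9 in AL and 6.45 in CR, the latter below the limit, so that the size is uncertain. Of 7 genes of glucose entry and exit, the glucose 6-phosphatase G6pc had 412 in AL and 572 in CR, a difference of 0.47, and the glucokinase regulator Gckr stood at -0.29. Epm2a, the glycogen phosphatase laforin, stood at 0.29. Of 7 genes of hormone input, the protein kinase A subunits Prkar2a and Prkacb stood highest, at 0.81 and 0.67.

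**Figure D4:**
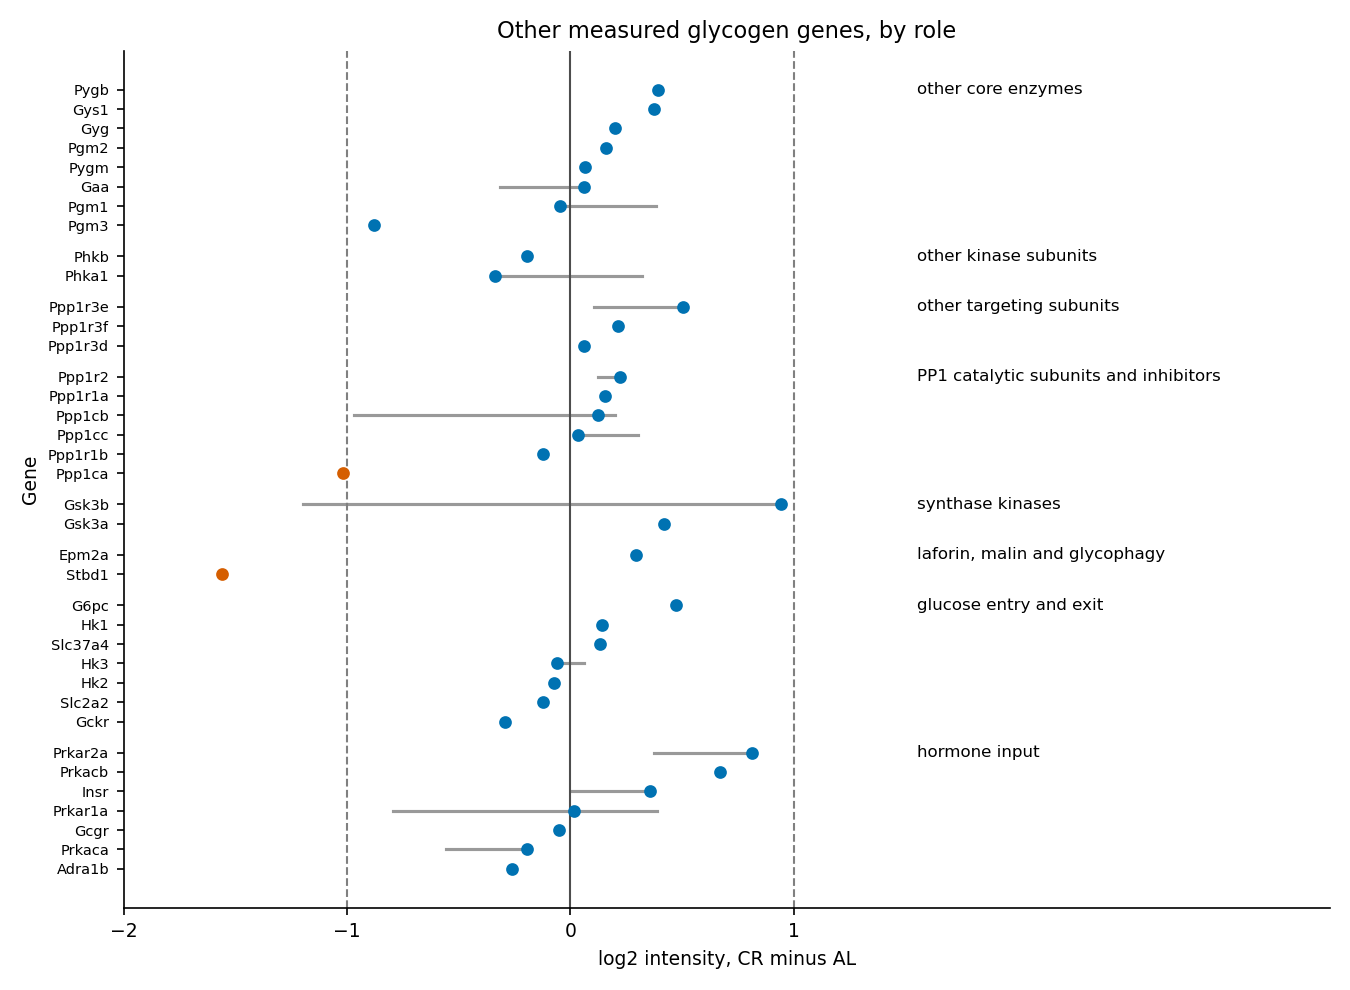
Log2 intensity of CR minus AL for the 37 measured genes of the wider glycogen list, grouped by role, relative to the typical gene. Points are the representing probe sets (orange where at least 2-fold apart), grey lines span a gene's measured probe sets and dashed lines mark 2-fold; 2 points lie past 2-fold, both lower, Stbd1 at -1.56 and Ppp1ca at -1.02.

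Over the 2 pools, the genes closest to Pygl in their pair of log2 intensities were the sialyltransferase gene St6gal1 at a distance of 0.12, the sialomucin gene Cd164 at 0.14 and the UDP-glucose dehydrogenase gene Ugdh at 0.19. Intensities of different probe sets are not levels on one scale, so this likeness describes signal only. For Ppp1r3g the same rule gave 1810053B23Rik, with 8.37 in AL and 104 in CR, the Golgi GTPase Rab30 and the endothelial lipase gene Lipg. This choice used the AL value of Ppp1r3g, which is below the limit. No distance is therefore given, and neither the choice nor its order should be relied on.

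The tissue label was checked against its markers. All 7 hepatocyte markers with a probe set were measured, with a summed intensity of 53441 in AL and 47480 in CR, and their median difference was -0.07. Ass1 had by far the lowest signal of the 7, with 13.0 in AL and 11.0 in CR. The fibrinogen chain gene Fgb, also an acute phase gene, had the largest difference among them, with 6666 in AL and 2155 in CR, a difference of -1.63. In whole liver, fewer cells of a type and less RNA per cell cannot be told apart. All 6 Kupffer cell markers were lower in CR, with sums of 1219 and 1038, as were the 4 measured of 6 neutrophil markers, with sums over those 4 of 120.4 and 45.7. Over all measured genes 52.1% lay below 0. The Kupffer cell marker Timd4 was below the limit in CR, at 5.63. Measured markers of other cell types were mixed. Stellate cells had 3 lower and 3 higher, sinusoidal endothelium 2 and 3, cholangiocytes 1 and 2, fat cells 1 and 2, and pancreas 2 and 1. The sums over the 3 measured pancreas markers were 121.9 in AL and 61.1 in CR, of which Cela1 made up 98.9 and 37.2. Of 6 skeletal muscle markers, a tissue that also stores glycogen, 3 were measured, with sums over those 3 of 30.7 and 32.0, and Acta1, Myh4 and Tnnt3 were below the limit in both pools. Beside the lower members, all 6 beta-actin and Gapdh control probe sets were lower in CR, from -1.61 to -0.67. The part of these markers and controls in the members' differences was not tested.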

How the data were processed

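Gene expression in 2 liver RNA pools, of 3 mice each, was measured on 1 Affymetrix array per pool. Per the submitters' processing notes, the authors made the deposited intensities by RMA. The method corrects background, normalizes between arrays and summarises probe sets. It commonly returns log2 values, whereas these are on a linear scale, and its version, its options and a genome build are not given in the sources used here. Normalization between arrays hides a shift shared by most genes. There were no detection calls. No other sample's columns were present.

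Values were transformed to log2 and subtracted. Symbols came from the platform annotation, and all 9 members were found by Entrez ID in the GRCm38.p6 table. The members and lists were chosen with earlier results of these data known. Named genes are the 9 members, the list genes past 2-fold, the 2 of largest absolute difference in each role and the 3 nearest to Ppp1r3g and to Pygl. Ppp1r3g in AL, below the limit, was set to the limit for bounds. Depth does not apply to arrays, and their number limits the precision. Alternatives were the mean over probe sets, leaving out probe sets that can match several transcripts, no limit, a limit at the 75th percentile (21.0), median centring, loess (span 0.4) and 1.5-fold. Added after seeing the data were scaling on control spikes, values below the limit set to it, means in place of medians and leaving out Phka2. The calculation was checked on simulated arrays. Tables were handled in pandas 2.3.3 and numpy 2.4.6 under Python 3.11.15, loess came from statsmodels 0.14.6, and plots were drawn in matplotlib 3.10.9.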

Additional observations from a re-analysis of the deposited data

How the results depend on the processing

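Ppp1r3g was the single member at least 2-fold higher under every setting tried. It has 1 probe set, so several settings could not change its value. These were averaged probe sets, leaving out multi-transcript types, means in place of medians and leaving out Phka2. The count of members at least 2-fold lower, 3 as reported, fell to 1, Pygl, with averaged probe sets and reached 7 on all hybridisation controls. With averaged probe sets Ppp1r3c stood at -0.52 and Phka2 at -0.27, each average including 1 probe set below the limit and that of Phka2 also the one of opposite sign, and Ppp1r3g exceeded Ppp1r3c by at least 4.50. Synthesis minus breakdown reversed to -0.27 with averaged probe sets and was 0.32 without Phka2. The margin of Ppp1r3g over Ppp1r3b was 4.16 with no limit, which uses an AL value of Ppp1r3g below the main limit. With the limit at the 75th percentile it was at least 2.26. The margin over Ppp1r3c was 5.50 with no limit and at least 3.59 at the 75th percentile. These margins differ because a bound moves with its limit. For the wider list the median was -0.95 if scaled to all spikes and -0.31 if scaled to cre. Its count past 2-fold, 2 as reported, was 1 after loess and 14 on all hybridisation controls, and 6 genes passed 1.5-fold. Of its 37 measured genes, those 14 were all lower, against 54.2% of all measured genes on the same scaling. The 6 genes past 1.5-fold were 3 higher and 3 lower, against 6.76% and 9.49% of all measured genes. Over all 12644 measured genes, 227 (1.80%) were at least 2-fold higher and 353 (2.79%) lower. With averaged probe sets 11410 genes were measured, 110 (0.964%) higher and 230 (2.02%) lower. On all hybridisation controls 33 (0.261%) were higher and 6857 (54.2%) lower, and on cre 96 (0.759%) and 1030 (8.15%). Past 1.5-fold lay 855 (6.76%) higher and 1200 (9.49%) lower. Gbe1 had no value once probe sets of multi-transcript types were left out. No paired analysis was possible because each diet had 1 array, and leaving out a replicate was not possible for the same reason.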
